A study of Mus musculus with 8 samples.

Results

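The deposited expression table marks 7322 of its 25378 genes as non-coding, and 67 of these had a mean of 5 FPKM or more over the 8 libraries. FPKM counts sequenced fragments relative to gene length and to the depth of the library, so levels can be set side by side between genes of different length. The 67 abundant non-coding RNA genes were chosen by that mean alone, and their high level is therefore a description with no test. All 67 are long non-coding RNA genes in RefSeq. In GENCODE vM21, 57 were matched by symbol, and Rnf227 was annotated there as protein-coding and BC064078 and 2810025M15Rik as transcribed pseudogenes. Just inside the threshold lay 1600010M07Rik, A730063M14Rik and Chaserr with means of 5.08, 5.10 and 5.16 FPKM, and just outside it 2810001G20Rik, 2010001A14Rik and BC002059 with 4.98, 4.98 and 4.81 FPKM.

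Long non-coding RNAs are annotated without a protein product, which does not show that none is translated. Several of the best-known ones work as RNA: Xist coats an X chromosome, Neat1 holds nuclear paraspeckles together and Norad binds Pumilio proteins. Others are mainly carriers. Hosts of small nucleolar RNAs (snoRNAs, which guide chemical modification of ribosomal RNA) keep the snoRNAs in their introns, and the spliced remainder is often degraded quickly during translation. Hosts of microRNAs release short RNAs that lower the expression of messenger RNAs with a matching seed.

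All 8 mice were wild-type C57BL/6 females of 6 weeks, and the skin of the back received MC903 (5 nmol) on each of 10 days. MC903, also called calcipotriol, is an analog of vitamin D, and the inflammation it causes in mouse skin is used as a model of atopic dermatitis. In the propionic acid group (4 mice), the short-chain fatty acid propionic acid (1 mM) was put on the same skin 1 h after MC903. The control group (4 mice) received a control whose composition is not stated in the labels, so both groups carried the MC903 treatment. The whole lesion was taken on day 11. Skin without MC903 was not analysed here. The labels call the samples biological replicates, taken here as separate mice.

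Library depth was close to equal, with 39034193 to 40194111 reads recovered from the FPKM values per library. Basal keratinocyte markers (6 genes, such as Krt5 and Krt14) summed to 4687 to 6080 FPKM in propionic acid skin and 4539 to 7383 FPKM in control skin. Control replicates 1 and 3 had the highest scores on the first principal component over all tested genes, 31.8 and 26.7. This component held 38.9% of the variance. Propionic acid replicates 1 to 4 scored -26.0, -9.45, 11.8 and -17.6, and control replicates 2 and 4 scored -16.3 and -0.93. Propionic acid replicate 3 thus lay on the same side as control replicates 1 and 3, and it was kept when those controls were left out. The labels do not set those controls apart, and only their expression values do. Libraries at the other end, where propionic acid replicate 1 scored -26.0, were not left out together in any fit. Comparisons between the groups are given with all 8 libraries, and in part also without these controls. Where only the fit with all 8 libraries is given, the sign without these controls can differ.

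The mean level of the 67 genes ranged from 5.08 FPKM in 1600010M07Rik to 269 FPKM in Gas5, with a median of 11.3 FPKM. Only 3 genes reached 100 FPKM, namely Gas5, 2410006H16Rik and Snhg1. A mean of 50 FPKM was reached by 7 genes, 20 FPKM by 24 and 10 FPKM by 37. Together the 67 genes held 0.384, 0.359, 0.305 and 0.374% of all FPKM in propionic acid replicates 1 to 4, against 0.259, 0.352, 0.245 and 0.359% in control replicates 1 to 4. Control replicates 1 and 3 had the lowest shares and the other 2 controls lay within the range of the propionic acid libraries. The plot of all 67 genes by library shows the levels by class.

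**Figure D1:**
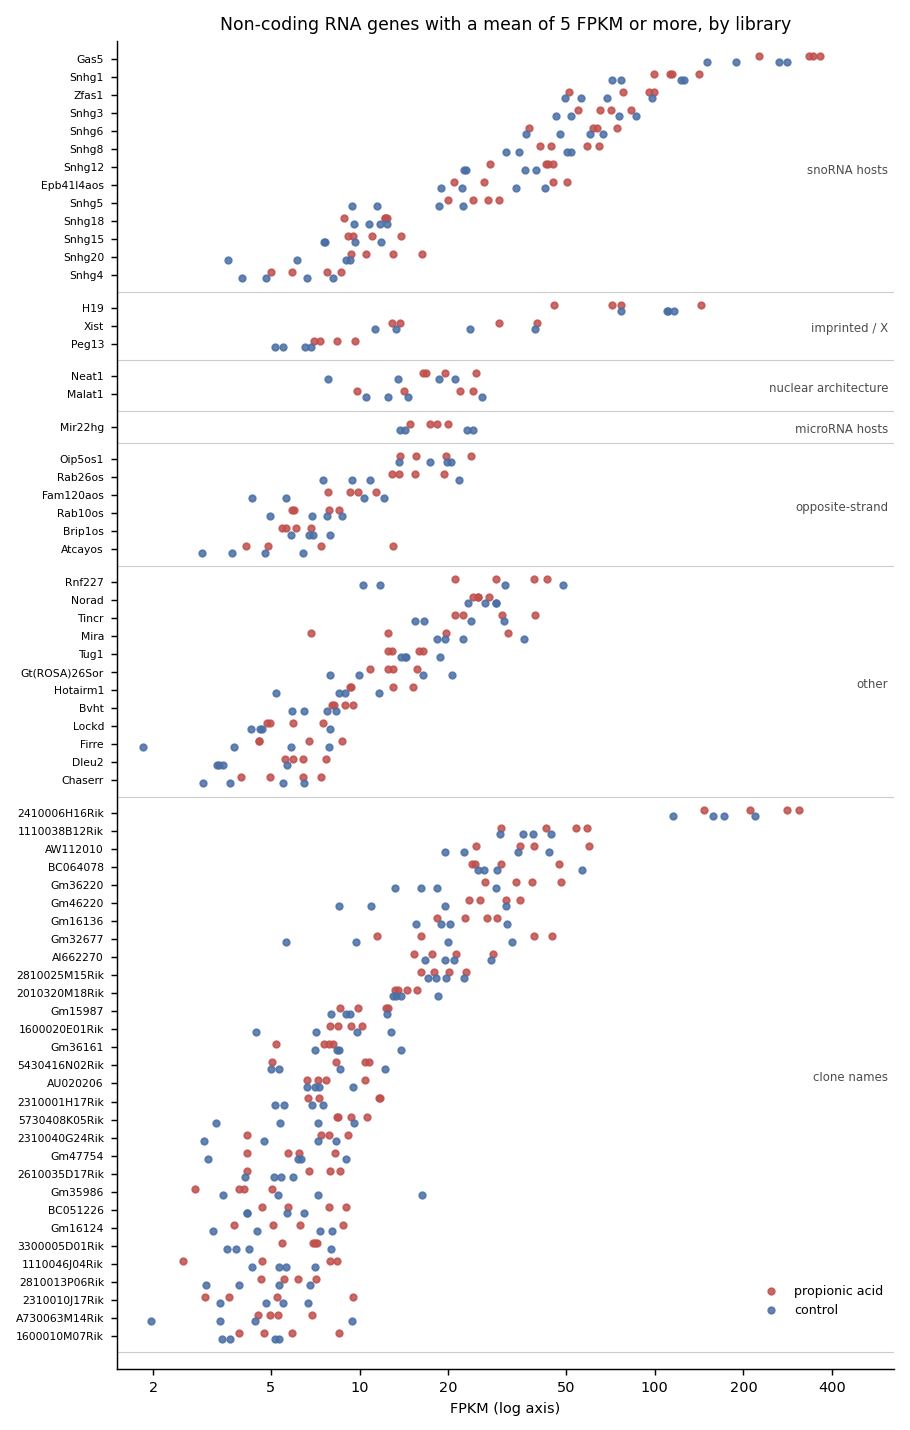
FPKM of each of the 67 genes in each library on a log axis, with red points for propionic acid and blue points for control mice. Genes are grouped by class and ordered by mean level within it; snoRNA hosts fill most of the range above 50 FPKM, and the groups overlap in all genes but Snhg20 and Peg13.

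Most of the genes were short. The length implied by FPKM and recovered reads was under 1000 bases for 36 genes, from 1000 to 3000 bases for 22 and over 3000 bases for 9. The shortest was Gm36220 with 105 bases and the longest Neat1 with 20773 bases. The median of 798 bases compares with 2982 bases for the 8026 protein-coding genes of 5 FPKM or more. With shorter genes came fewer reads at a given FPKM. The 67 genes had a median of 562 reads per library, against 2083 reads for those protein-coding genes, and 14 of the 67 had fewer than 100 reads in at least 1 library, down to 26 reads for A730063M14Rik in control replicate 1. Their spread within a group was also wider, with a median coefficient of variation of 23.8% among propionic acid mice and 31.4% among control mice. The protein-coding genes of 5 FPKM or more had 14.5% and 14.4%.

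**Figure D2:**
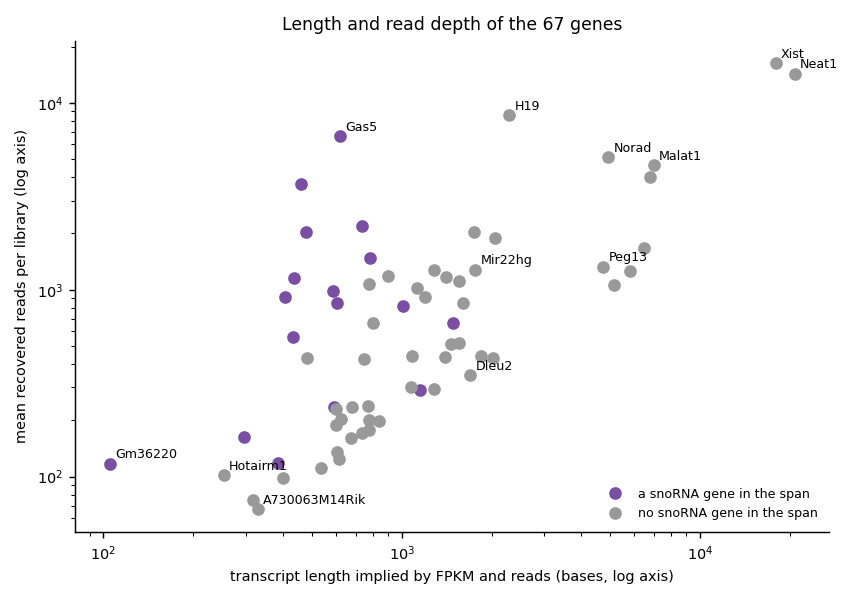
Mean recovered reads per library against implied gene length for the 67 genes, both on log axes; purple points have a snoRNA gene within their RefSeq span. Gm36220, Hotairm1 and A730063M14Rik lie at the shallow, short end, and Xist and Neat1 have the most reads.

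No gene changed past an adjusted p of 0.05 between propionic acid and control skin in limma, and the smallest adjusted p among the 67 was 0.476. All 67 were among the 12598 genes tested, of which 792 had an unadjusted limma p under 0.05 (6.29%), and voom on the recovered reads also gave 0 genes past the adjusted threshold. At an unadjusted limma p under 0.05, 8 of the 67 had a higher level in propionic acid skin (11.9%), where 4.07% of all tested genes did. None of the 67 had a lower level at that threshold, against 2.21% of all tested genes. Among the 8026 protein-coding genes of 5 FPKM or more, 3.85% were higher and 2.34% lower at that threshold. The 8 were Gm36220, Dleu2, Snhg5, Snhg20, Peg13, 2310001H17Rik, Gm46220 and Gas5. The 4 propionic acid values lay above all 4 control values in only Snhg20 and Peg13 (2.99% of the 67, against 2.06% of all tested genes), and the reverse was true of none of the 67 and of 1.1% of all tested genes, which makes 3.16% in either direction. The count of 8 was 18 without control replicate 2, 5 without propionic acid replicate 1, control replicate 1 or control replicate 3, and 4 without propionic acid replicate 4. Over all tested genes the count of 792, which holds both directions, moved too in these fits. It was 1238 with control replicate 2 dropped and 599 with propionic acid replicate 4 dropped. Dropping propionic acid replicate 1, control replicate 1 or control replicate 3 gave 524, 734 and 442. The shifts are thus not particular to the 67 genes. Gm36220, Dleu2 and Snhg5 kept an unadjusted limma p under 0.05 in all 8 fits that left out 1 library. Gas5 and Gm46220 lost it in 5 of them, 2310001H17Rik in 4, Peg13 in 2 and Snhg20 in 1. Some markers of other skin layers differed between the groups, none past the adjusted threshold, and the sums of both lists below overlapped. Adipocyte markers, 4 of 6 higher at an unadjusted limma p under 0.05, summed to 864 to 1815 FPKM in propionic acid skin and 567 to 1164 FPKM in control skin. Skeletal muscle markers summed to 3828 to 7760 FPKM in propionic acid skin and 3801 to 5984 FPKM in control skin. Of these 8, 3 were higher at that p (Ckm, Myh4 and Actn3) and 1 was lower (Myh1). No marker of either list was at 0 in a library, and their part in the values of the 67 genes was not tested. In these bulk samples, fewer cells of a type and less RNA per cell cannot be told apart.

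Most of the 67 genes had a positive difference. A log2 fold change above 0 was found in 53 of the 67 (79.1%), against 51.7% of all tested genes and 51.5% of the protein-coding genes of 5 FPKM or more, and the median log2 fold change was 0.26, against 0.01 over all tested genes. That median was 0.13 without control replicate 1 and 0.13 without control replicate 3. Single values ran from -0.71 in Gm35986 to 0.94 in Gm36220. The lowest of the 8 values was in control replicate 3 for 25 genes and in control replicate 1 for 24. The highest was in propionic acid replicate 4 for 23 genes, in propionic acid replicate 1 for 11 and in control replicate 2 for 11.

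Without control replicates 1 and 3, only 26 of the 67 had a log2 fold change above 0 (38.8%), against 52.9% of all tested genes, and the median log2 fold change of the 67 was -0.06. In 28 genes the sign turned from higher to lower, and in 1 from lower to higher. Control replicates 2 and 4 averaged above control replicates 1 and 3 in 60 of the 67 genes. Control replicates 1 and 3 both lay under both other controls in 46 of the 67 (68.7%). This held for 24.5% of the 8026 protein-coding genes of 5 FPKM or more. Leaving out control replicates 1 and 3 therefore lowers most fold changes of the 67 genes. Of the 8 genes named above, Gm36220 alone kept an unadjusted limma p under 0.05 (1.49% of the 67 higher, against 2.41% of all tested genes). Only control replicates 2 and 4 remained as controls, so a p could rise without a smaller difference. Peg13 had a log2 fold change of 0.37 in both fits, with an unadjusted limma p of 0.0182 and then 0.0553. Mir22hg, Gt(ROSA)26Sor and Gm35986 had a lower level in propionic acid skin at that threshold (4.48%, against 1.60%). No gene passed an adjusted p of 0.05 in limma there, with 505 of the 12598 tested genes (4.01%) at an unadjusted p under 0.05.

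**Figure D3:**
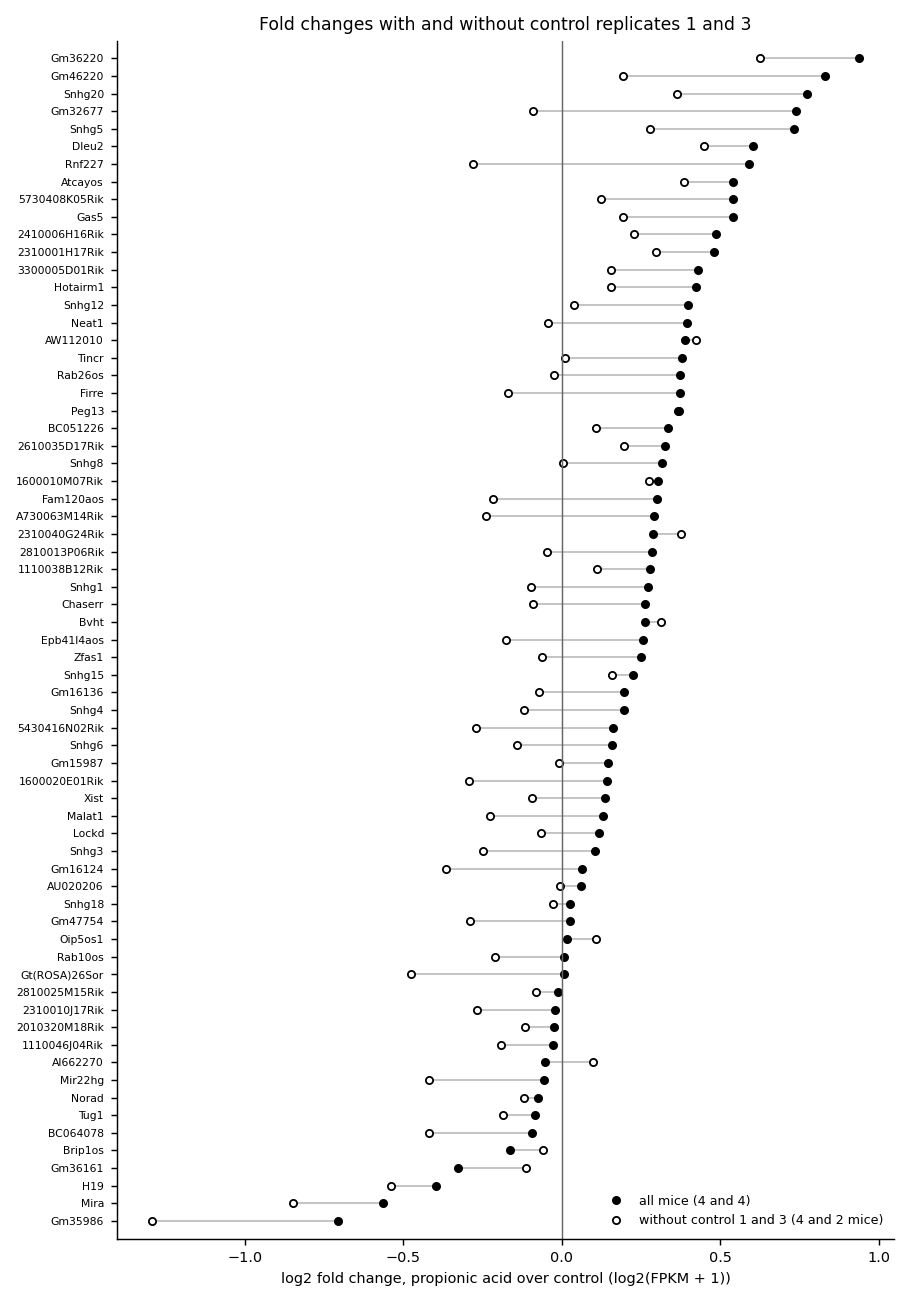
Log2 fold change of propionic acid over control on the log2(FPKM + 1) scale for each of the 67 genes, with all 8 mice (filled) and without control replicates 1 and 3 (open). Of the 53 filled points above 0, 28 have their open point below 0.

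Hosts of snoRNAs were the most abundant class. By name, 13 of the 67 are such hosts (the Snhg genes, Gas5, Zfas1 and Epb41l4aos), and by position 17 have a RefSeq snoRNA gene within their span, which adds 2410006H16Rik, 1110038B12Rik, Gm36220, Rab26os and 5730408K05Rik and leaves out Snhg20. Gas5 and Snhg1 each held 8 snoRNA genes and Snhg12 held 4. All 13 named hosts had a higher mean log2 level in propionic acid skin, 3 of them at an unadjusted limma p under 0.05, with a median log2 fold change of 0.26. Of all tested genes 51.7% had a log2 fold change above 0, and 4.07% were higher at that p. Without control replicates 1 and 3, 6 were higher and 7 lower, with a median of -0.03.

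Several snoRNA hosts are known to begin like ribosomal protein messenger RNAs, with a C at the first transcribed base in an uninterrupted run of pyrimidines (C or T). Such a start, a terminal oligopyrimidine motif, ties translation of the RNA to growth signalling. A run of at least 5 pyrimidines from the annotated first base was searched on the gene's own strand in the RefSeq starts of build GRCm38.p6. It was present in 8 of the 15 snoRNA hosts with an entry (53.3%), counting hosts by name and by position, in 1 of 36 other members with an entry (2.78%), in 15 of 54 ribosomal protein genes (27.8%) and in 5.28% of 27025 genes in all. Of the 15, 10 are hosts by name, of which 4 had a run (Gas5 only at its second start), and 5 are hosts by position only, of which 4 had one. Runs that begin with T, as in Snhg12 and Snhg18, were counted although the motif begins with C. The lines show 15 bases before and 25 from the first base on, 5′ to 3′, with the pyrimidine run at the first base in capitals. They are shown so that the starts with a run can be set against those of Snhg5 and Snhg20, which have none. Snhg5 and Snhg20 are among the 8 genes with a low p, as are Gas5 and Gm36220 of the hosts with a run. The other hosts with a run are not, and a link between run and p was not tested.
Gas5, second start (chr1:161035151-161035190, plus strand): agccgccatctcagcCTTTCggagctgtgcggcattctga
Snhg8 (chr3:123508312-123508351, minus strand): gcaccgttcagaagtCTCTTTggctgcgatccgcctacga
Snhg12 (chr4:132308663-132308702, plus strand): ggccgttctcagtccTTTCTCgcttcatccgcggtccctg
Gm36220 (chr11:106500900-106500939, plus strand): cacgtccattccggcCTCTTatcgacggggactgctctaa
Snhg18 (chr15:32244638-32244677, minus strand): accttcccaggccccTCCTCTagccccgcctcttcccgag
Rab26os (chr17:24528236-24528275, plus strand): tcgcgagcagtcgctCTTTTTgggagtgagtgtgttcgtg
1110038B12Rik, second start (chr17:34952444-34952483, minus strand): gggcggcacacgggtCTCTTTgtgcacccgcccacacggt
5730408K05Rik (chr19:8888746-8888785, minus strand): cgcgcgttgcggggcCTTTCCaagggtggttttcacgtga
Snhg5 (chr9:88522873-88522912, minus strand): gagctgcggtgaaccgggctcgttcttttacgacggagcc
Snhg20 (chr11:117076768-117076807, plus strand): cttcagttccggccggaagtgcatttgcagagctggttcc

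A run that starts some bases further on was not counted, and an annotated first base can differ from the one used in skin. The search can thus miss such starts, also in the ribosomal protein genes, so the shares do not rank hosts above those genes. The match is a description of these letters only.

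Gas5 (growth arrest-specific 5, chromosome 1, 161034601 to 161038539) had the highest level of the 67. It measured 345, 333, 226 and 365 FPKM in propionic acid replicates 1 to 4, against 151, 264, 188 and 282 FPKM in control replicates 1 to 4. Propionic acid replicate 3 lay among the controls, so the groups overlapped. Its log2 fold change of 0.54 (SE 0.23) came with an unadjusted limma p of 0.0430 and an adjusted p of 0.786, and it was 0.19 without control replicates 1 and 3. Without propionic acid replicate 1, 2 or 4 or control replicate 1 or 3 alone, the unadjusted limma p was between 0.0862 and 0.116.

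Snhg5 (chromosome 9, 88521052 to 88522897) measured 24.2, 27.3, 19.9 and 29.8 FPKM in propionic acid skin, against 11.5, 22.5, 9.42 and 18.5 FPKM in control skin. Control replicates 1 and 3 were the low values, and control replicate 2 lay above propionic acid replicate 3. Its log2 fold change of 0.73 (SE 0.25) had an unadjusted limma p of 0.0164 and an adjusted p of 0.724, and was 0.28 without those controls. Snhg20 (chromosome 11, 117076783 to 117078955) measured 9.36, 13, 10.5 and 16.3 FPKM in propionic acid skin, against 6.14, 9.25, 3.59 and 8.99 FPKM in control skin. The groups did not overlap, but propionic acid replicate 1 and control replicate 2 lay close together. The log2 fold change of Snhg20 was 0.78 (SE 0.27; unadjusted limma p 0.0164, adjusted p 0.724) with all libraries and 0.37 without control replicates 1 and 3.

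The largest log2 fold change of the 67 belonged to Gm36220 (chromosome 11, 106500915 to 106501211), whose span holds the snoRNA gene Snord104. It measured 48.3, 34.0, 26.7 and 38.5 FPKM in propionic acid skin, against 16.1, 18.3, 13.1 and 29.0 FPKM in control skin. Only control replicate 4 reached into the propionic acid range, above propionic acid replicate 3. This log2 fold change was 0.94 (SE 0.24) with an unadjusted limma p of 0.00359 and an adjusted p of 0.476. It was 0.62 with an unadjusted p of 0.0416 without control replicates 1 and 3, and between 0.79 and 1.15 when each library was left out in turn. Behind these values stood 55 to 203 reads per library over 105 implied bases, fewer than for most of the 67.

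The genes of the second and the third highest level gave smaller differences than Gm36220. 2410006H16Rik, a clone-named gene with 3 snoRNA genes in its span (Snord49b, Snord49a and Snord65), measured 308, 211, 147 and 280.3 FPKM in propionic acid skin, against 116, 219, 158 and 172 FPKM in control skin. Its groups overlapped, with control replicates 2, 3 and 4 within the propionic acid range, and the log2 fold change was 0.49 (SE 0.26, unadjusted limma p 0.0931). Snhg1, host of Snord22 among others, measured 112, 114, 99.8 and 142 FPKM in propionic acid skin, against 76.7, 125, 71.5 and 123 FPKM in control skin. Here control replicates 2 and 4 lay within the propionic acid range and control replicates 1 and 3 under it. The log2 fold change of Snhg1 was 0.27 (SE 0.21) with all libraries and -0.10 without control replicates 1 and 3.

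Zfas1, host of Snord12, averaged 81.3 ± 22.1 FPKM in propionic acid skin and 68.3 ± 21.4 FPKM in control skin (SD, n = 4 each, as for the means that follow). Snhg3, host of Snora73a and Snora73b, averaged 68.6 ± 11.6 and 65.1 ± 19 FPKM in propionic acid and control skin, and Snhg6, host of Snord87, 59.5 ± 15.6 and 52.9 ± 13.5 FPKM. For these 3 the difference was smaller than the SD of either group. The log2 fold changes of Zfas1, Snhg3 and Snhg6 were 0.25, 0.10 and 0.16 with all libraries. Without control replicates 1 and 3 they were -0.06, -0.25 and -0.14. Snhg8, host of Snora24, averaged 52.3 ± 11.4 FPKM in propionic acid skin and 42.1 ± 10.7 FPKM in control skin. Snhg12 averaged 39.8 ± 8.15 and 30.4 ± 8.96 FPKM, and 1110038B12Rik, whose span holds Snord52, 46.5 ± 12.9 and 37.3 ± 6.05 FPKM, in propionic acid and control skin. Each of these had overlapping groups and an unadjusted limma p above 0.05.

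The remaining hosts had lower levels. Epb41l4aos averaged 35.7 ± 14.3 FPKM in propionic acid skin and 29.4 ± 10.9 FPKM in control skin, Snhg15 10.8 ± 2.11 and 9.16 ± 2.01 FPKM, and Snhg4 6.81 ± 1.66 and 5.89 ± 1.84 FPKM. Snhg18 was the most even of the class, with 11.4 ± 1.72 FPKM in propionic acid skin and 11.1 ± 1.20 FPKM in control skin, a log2 fold change of 0.03 (SE 0.13). Rab26os, with 1 snoRNA gene in its span, averaged 15.3 ± 2.86 and 12.4 ± 6.35 FPKM in propionic acid and control skin. 5730408K05Rik, whose span holds Snora57, averaged 9.19 ± 1.04 and 6.36 ± 2.69 FPKM, with a log2 fold change of 0.54 (SE 0.25; unadjusted limma p 0.0538).

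Summed over the 17 genes with a snoRNA gene in the span, FPKM came to 1330, 1154, 832 and 1365 in propionic acid replicates 1 to 4, against 645, 1115, 746 and 1060 in control replicates 1 to 4. Propionic acid replicate 3 was the lowest of its group and lay under control replicates 2 and 4. The summed FPKM of 73 ribosomal protein genes, a set added after seeing the data, was 131093, 101850, 83369 and 123768 in propionic acid skin, against 84708, 120752, 97233 and 106428 in control skin. Propionic acid replicates 1 and 4 were the 2 highest libraries in both sums, and propionic acid replicate 3 and control replicates 1 and 3 were the 3 lowest in both. The part of this shared level in the fold changes of the hosts was not tested. The 9 proteins of the snoRNA particles and their assembly that were tested had 0 genes at an unadjusted p under 0.05 and a median log2 fold change of 0.09. That median was -0.006 without control replicates 1 and 3.

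Gene length moved with the libraries as well. For the 36 members under 1000 bases, the median log2 level relative to each gene's own mean was 0.28, -0.02, -0.13 and 0.42 in propionic acid replicates 1 to 4, against -0.44, 0.21, -0.40 and 0.10 in control replicates 1 to 4. For 692 tested protein-coding genes under 1000 bases it was 0.22, -0.08, -0.12 and 0.24 in propionic acid skin, against -0.13, 0.13, -0.12 and -0.10 in control skin. Short genes of both kinds were thus high in propionic acid replicates 1 and 4 and in control replicate 2, and short members were lower than short protein-coding genes in control replicates 1 and 3. The 9 members over 3000 bases had medians of -0.13, 0.15, 0.22 and -0.06 in propionic acid skin, against -0.04, -0.04, -0.54 and 0.16 in control skin, so that control replicate 3 was low among the long genes also. What part length has in the fold changes was not tested.

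**Figure D4:**
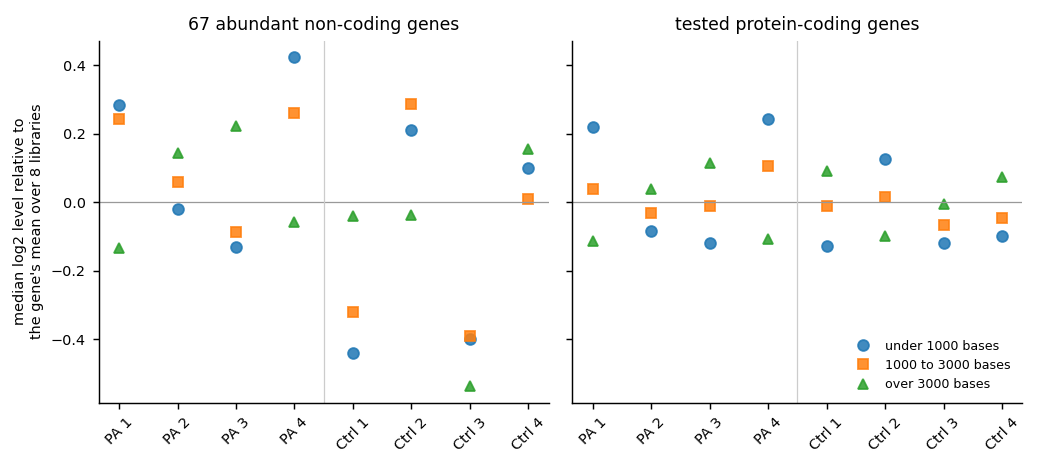
Median log2 level relative to each gene's mean over the 8 libraries, by library (PA, propionic acid; Ctrl, control) and length class, for the 67 genes (left panel) and the tested protein-coding genes (right panel). Short genes stand highest in PA 1, PA 4 and Ctrl 2 in both panels, and the members fall to -0.44 in Ctrl 1 and -0.40 in Ctrl 3.

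MicroRNA hosts formed a smaller class. By RefSeq position 6 members hold a microRNA gene: H19 holds miR-675, Mir22hg holds miR-22, Dleu2 holds miR-15a and miR-16-1, and Snhg20, Snhg4 and Gm15987 hold Mir6516, Mir1949 and Mir7649. The mature sequences, from RefSeq on GRCm38.p6, are shown 5′ to 3′ for 1 arm each of the first 4 microRNAs, with the seed (bases 2 to 8) in capitals, because the 2 microRNAs of Dleu2 share theirs while those of H19 and Mir22hg differ from it.
miR-675-5p (chr7:142577112-142577133, minus strand, in H19): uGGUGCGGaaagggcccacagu
miR-22-3p (chr11:75463772-75463793, plus strand, in Mir22hg): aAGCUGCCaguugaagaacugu
miR-15a-5p (chr14:61632075-61632096, minus strand, in Dleu2): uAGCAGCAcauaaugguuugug
miR-16-5p (chr14:61631936-61631957, minus strand, in Dleu2): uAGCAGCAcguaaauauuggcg

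The FPKM values are those of the host genes, and mature microRNAs were not measured.

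Dleu2 (chromosome 14, 61602836 to 61682373) takes its name from a region deleted in human chronic lymphocytic leukaemia, where loss of miR-15a and miR-16-1 is known. It measured 7.70, 5.94, 5.57 and 6.4 FPKM in propionic acid skin, against 3.28, 3.34, 3.43 and 5.69 FPKM in control skin. Only control replicate 4 overlapped the propionic acid mice, lying just above propionic acid replicate 3. Dleu2 had a log2 fold change of 0.60 (SE 0.17) with an unadjusted limma p of 0.00539 and an adjusted p of 0.488. Without control replicates 1 and 3 it was 0.45 with an unadjusted p of 0.0618. The span overlaps the protein-coding genes Trim13 and Kcnrg, and Trim13 averaged 3.97 FPKM in propionic acid skin and 3.77 FPKM in control skin.

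Mir22hg (chromosome 11, 75461539 to 75466690) measured 18.3, 19.9, 14.8 and 17.3 FPKM in propionic acid skin, against 14.2, 23.2, 13.7 and 24.3 FPKM in control skin. The propionic acid values fell between the low control replicates 1 and 3 and the high control replicates 2 and 4. Mir22hg had a log2 fold change of -0.06 (SE 0.20) with all libraries, and -0.42 with an unadjusted limma p of 0.0200 and an adjusted p of 1.00 without control replicates 1 and 3. The microRNA processing proteins (9 tested, such as Drosha and Dicer1) had 0 genes at an unadjusted p under 0.05 and a median log2 fold change of -0.09.

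**Figure D5:**
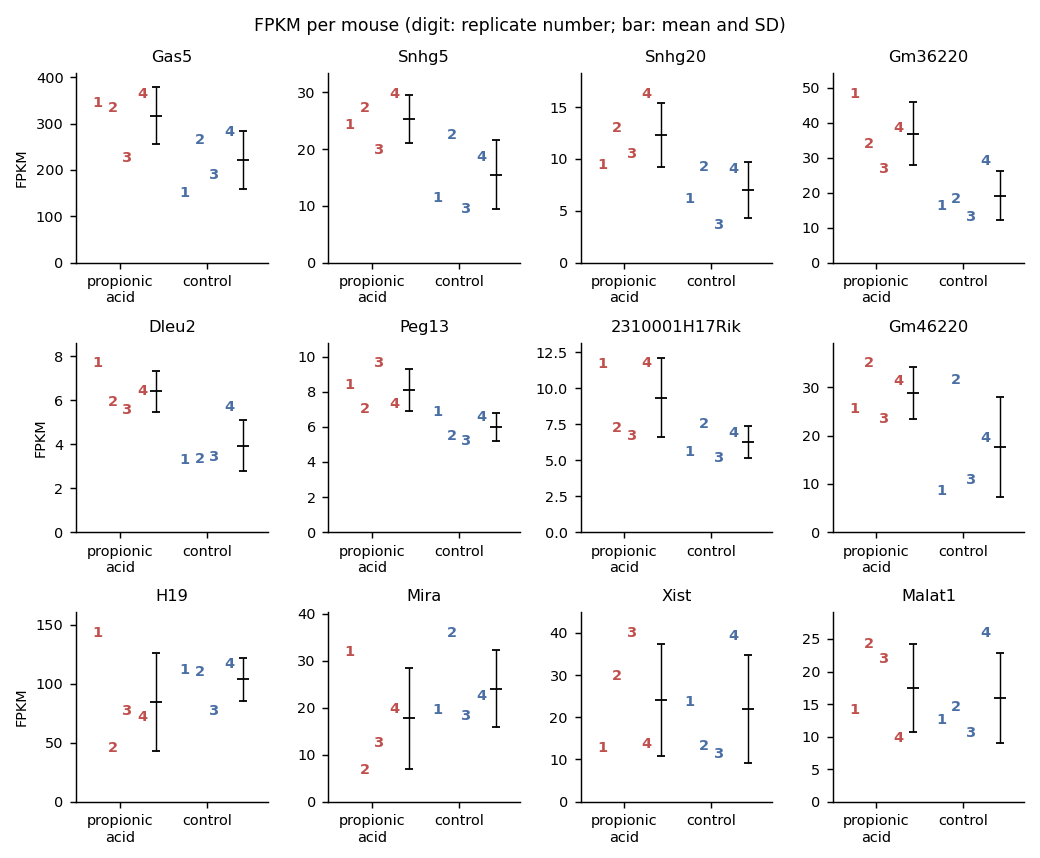
FPKM per mouse for 12 of the genes, with propionic acid on the left and control on the right of each panel; digits are replicate numbers, and the bar beside each group is its mean and SD. In Gas5, Snhg5 and Gm46220 control replicates 1 and 3 are the lowest values, while Peg13 and Snhg20 have groups that do not overlap.

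Imprinted genes are expressed from 1 parental copy. H19, expressed from the maternal copy and abundant mainly before birth, was the fourth most abundant of the 67 (chromosome 7, 142575530 to 142578146). It measured 143, 45.5, 76.8 and 71.7 FPKM in propionic acid skin, against 111, 109.9, 76.9 and 116 FPKM in control skin. Propionic acid replicate 1 was the highest of all 8 mice and propionic acid replicate 2 the lowest, so the groups overlapped. For H19 the log2 fold change was -0.40 (SE 0.30; unadjusted limma p 0.221). Without propionic acid replicate 1 it was -0.69 with an unadjusted limma p of 0.0127. Its reciprocally imprinted neighbour Igf2, a growth factor, averaged 1.49 ± 0.267 FPKM in propionic acid skin and 1.20 ± 0.386 FPKM in control skin.

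Peg13, a paternally expressed RNA within Trappc9 (chromosome 15, 72805602 to 72810324), measured 8.39, 7.02, 9.64 and 7.32 FPKM in propionic acid skin, against 6.83, 5.50, 5.18 and 6.55 FPKM in control skin. All propionic acid values lay above all control values, with propionic acid replicate 2 and control replicate 1 close together. Peg13's log2 fold change of 0.37 (SE 0.13) had an unadjusted limma p of 0.0182 and an adjusted p of 0.724. Without control replicates 1 and 3 it was again 0.37, with an unadjusted p of 0.0553 on 6 libraries. Trappc9 itself averaged 3.57 FPKM in propionic acid skin and 3.82 FPKM in control skin, with a log2 fold change of -0.07.

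Of 13 imprinted protein-coding genes tested, 2 had an unadjusted limma p under 0.05, both higher in propionic acid skin (4.07% of all tested genes were), and 0 passed the adjusted threshold. The median log2 fold change of the 13 was 0.16, and 10 had a log2 fold change above 0, as did 51.7% of all tested genes. Peg3, a paternally expressed zinc finger protein, averaged 6.71 ± 1.78 FPKM in propionic acid skin and 3.05 ± 0.313 FPKM in control skin, a log2 fold change of 0.90 (SE 0.17; unadjusted limma p 0.000359, adjusted p 0.215). Nnat, a paternally expressed membrane proteolipid, measured 19, 9.86, 79.0 and 1.88 FPKM in propionic acid skin, against 0.410, 0.267, 0.0538 and 0.311 FPKM in control skin. The propionic acid mice differed widely among themselves, with a mean of 27.4 ± 35.1 FPKM, and all lay above the controls. The log2 fold change of Nnat was 3.58 (SE 0.80; unadjusted limma p 0.00145, adjusted p 0.392).

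Xist (chromosome X, 103460373 to 103483233), the RNA of X inactivation, had the most reads of the 67, with 8085 to 28457 per library. It measured 12.8, 29.7, 40.1 and 13.6 FPKM in propionic acid skin, against 23.7, 13.3, 11.3 and 39.3 FPKM in control skin. In each group high and low mice differed by more than 3-fold, and the groups covered almost the same range. For Xist the log2 fold change was 0.14 (SE 0.45). Firre, an X-linked nuclear RNA, likewise varied among mice, with 4.55, 8.73, 6.71 and 4.54 FPKM in propionic acid skin, against 3.74, 5.87, 1.84 and 7.84 FPKM in control skin. Propionic acid replicates 2 and 3 and control replicate 4 were high in both RNAs.

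Among the long nuclear RNAs, neither Malat1 nor Neat1 had an unadjusted limma p under 0.05. Malat1 (chromosome 19, 5795690 to 5802672), an RNA of nuclear speckles, measured 14.1, 24.3, 21.9 and 9.79 FPKM in propionic acid skin, against 12.5, 14.6, 10.5 and 26.0 FPKM in control skin. As for Xist, propionic acid replicates 2 and 3 and control replicate 4 were the 3 highest. Neat1 (chromosome 19, 5824708 to 5845480), the scaffold of paraspeckles, measured 16.8, 24.9, 19.5 and 16.4 FPKM in propionic acid skin, against 13.5, 21.0, 7.83 and 18.6 FPKM in control skin. Neat1 had a log2 fold change of 0.39 (SE 0.27) with all libraries and -0.04 without control replicates 1 and 3, and that of Malat1 was 0.13 (SE 0.32) and -0.23. The 12 paraspeckle proteins had 0 genes at an unadjusted limma p under 0.05 and a median log2 fold change of -0.04, and the 10 nuclear speckle proteins 0 genes and a median of 0.01.

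Norad, Tug1, Oip5os1, Brip1os and Chaserr each had an unadjusted limma p above 0.05. Norad, the RNA that binds Pumilio proteins, averaged 25.5 ± 1.36 FPKM in propionic acid skin and 26.9 ± 2.72 FPKM in control skin, with a log2 fold change of -0.07 (SE 0.10). Tug1, an RNA found in nucleus and cytoplasm, averaged 14.4 ± 2.01 and 15.3 ± 2.30 FPKM in propionic acid and control skin. Oip5os1, which is Cyrano, known for its site for miR-7, averaged 18.2 ± 4.51 and 17.8 ± 3.08 FPKM. Brip1os averaged 6.01 ± 0.630 and 6.86 ± 0.854 FPKM, with a log2 fold change of -0.16 (SE 0.12). Chaserr, known in mouse to restrain its neighbour Chd2, averaged 5.69 ± 1.54 FPKM in propionic acid skin and 4.64 ± 1.64 FPKM in control skin, and Chd2 averaged 5.64 and 6.29 FPKM.

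Among members near Hox genes, Mira and Hotairm1 lie in the Hoxa cluster on chromosome 6. Mira, studied in mouse embryonic stem cells, measured 31.9, 6.83, 12.5 and 19.6 FPKM in propionic acid skin, against 19.4, 36.0, 18.3 and 22.5 FPKM in control skin. Its groups overlapped, with propionic acid replicates 2 and 3 lower than every control. For Mira the log2 fold change was -0.56 (SE 0.40; unadjusted limma p 0.191), and -0.90 with an unadjusted limma p of 0.0272 without propionic acid replicate 1. Hotairm1, named for its place in the cluster and for myeloid cells, averaged 11.7 ± 2.86 FPKM in propionic acid skin and 8.56 ± 2.62 FPKM in control skin, on 53 to 154 reads per library. Hotairm1 had a log2 fold change of 0.42 (SE 0.23; unadjusted limma p 0.0951).

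Tincr, known in human epidermis as an RNA of keratinocyte differentiation, measured 30.3, 39.3, 21.0 and 22.5 FPKM in propionic acid skin, against 15.4, 31.0, 16.5 and 23.9 FPKM in control skin. Rnf227, named as a ring finger protein, measured 43.2, 39.1, 21.1 and 29.1 FPKM in propionic acid skin, against 11.8, 48.9, 10.2 and 31.1 FPKM in control skin. Both were lowest in control replicates 1 and 3, and in both the other controls overlapped the propionic acid mice. Their log2 fold changes were 0.38 (SE 0.25) and 0.59 (SE 0.46) with all libraries, and 0.01 and -0.28 without those controls. The 6 markers of suprabasal keratinocytes, such as Krt1 and Krt10, summed to 7240, 6889, 3817 and 3861 FPKM in propionic acid skin, against 2225, 8371, 3147 and 5498 FPKM in control skin. Control replicates 1 and 3 were the lowest of the 8 mice in this sum also, and its part in the values of Tincr and Rnf227 was not tested. None of the 6 markers was at 0 in any library.

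AW112010, an RNA known in mouse from activated immune cells, measured 39.0, 24.8, 35.0 and 59.7 FPKM in propionic acid skin, against 43.8, 34.4, 19.5 and 22.6 FPKM in control skin. Propionic acid replicate 4 was the highest mouse, and the rest overlapped. Its log2 fold change was 0.39 (SE 0.30; unadjusted limma p 0.227) and 0.42 without control replicates 1 and 3. The markers of T cells summed to 30.3 to 45.2 FPKM in propionic acid skin and 26.8 to 54.6 FPKM in control skin, and those of macrophages to 1160 to 1952 and 1544 to 2338 FPKM.

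Of the clone-named members, 2310001H17Rik (chromosome 6, 129232623 to 129238482) measured 11.7, 7.26, 6.69 and 11.8 FPKM in propionic acid skin, against 5.54, 7.51, 5.18 and 6.88 FPKM in control skin. Propionic acid replicates 1 and 4 lay above all controls, and propionic acid replicates 2 and 3 among them. Its log2 fold change was 0.48 (SE 0.20; unadjusted limma p 0.0373, adjusted p 0.770), and 0.30 without control replicates 1 and 3. Gm46220 (chromosome 10, 38059341 to 38063357) measured 25.5, 35.0, 23.4 and 31.4 FPKM in propionic acid skin, against 8.52, 31.4, 10.9 and 19.5 FPKM in control skin. Control replicates 1 and 3 were the lowest, and control replicate 2 lay within the propionic acid range. The log2 fold change of Gm46220 was 0.83 (SE 0.34; unadjusted limma p 0.0376, adjusted p 0.770), and 0.19 without those controls.

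Gm32677 varied most among the members of 20 FPKM or more, with 38.9, 44.8, 11.5 and 16.1 FPKM in propionic acid skin, against 5.63, 19.9, 9.72 and 32.8 FPKM in control skin. High and low mice were found in both groups, and the log2 fold change of 0.74 (SE 0.56) was -0.09 without control replicates 1 and 3. Gm35986, which overlaps the fatty acid elongase gene Elovl6, measured 3.88, 2.76, 5.04 and 4.05 FPKM in propionic acid skin, against 5.28, 7.23, 3.45 and 16.2 FPKM in control skin. Only control replicate 3 lay within the propionic acid range, and control replicate 4 was far above every other mouse. The log2 fold change was -0.71 (SE 0.36; unadjusted limma p 0.0812), and -1.29 with an unadjusted limma p of 0.00287 and an adjusted p of 0.670 without control replicates 1 and 3. Elovl6 averaged 174 FPKM in propionic acid skin and 254 FPKM in control skin (log2 fold change -0.60; unadjusted limma p 0.183), and without strand the reads of both genes cannot be told apart.

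Gt(ROSA)26Sor, the locus used to place transgenes in mice, measured 12.5, 10.8, 13 and 15.6 FPKM in propionic acid skin, against 9.97, 16.3, 7.93 and 20.5 FPKM in control skin. As for Mir22hg, the propionic acid mice lay between control replicates 1 and 3 and control replicates 2 and 4. Its log2 fold change of 0.01 (SE 0.26) was -0.48 with an unadjusted limma p of 0.0239 without control replicates 1 and 3. BC064078, whose mean was 31.6 ± 11.0 FPKM in propionic acid skin and 34.4 ± 15 FPKM in control skin, and Lockd, known in mouse as the RNA next to Cdkn1b, with 5.84 ± 1.23 and 5.38 ± 1.73 FPKM, differed by less than the SD of either group.

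In all, 19 of the 67 overlap the span of a protein-coding gene, and their values can hold reads of that gene. Of these 19, 15 had a log2 fold change above 0, as did 38 of the 48 without such an overlap and 51.7% of all tested genes. Without control replicates 1 and 3, 6 of the 19 and 20 of the 48 did, against 52.9% of all tested genes. The part of such reads in the fold changes was not tested. The protein partners of other non-coding RNAs showed 0 genes at an unadjusted limma p under 0.05 in each list. Of the proteins of 7SK, 6 were tested, with a median log2 fold change of -0.03; of those of RNase P and RNase MRP, 9 with a median of 0.08; and of the signal recognition particle, 7 with a median of 0.07. The 10 factors of nonsense-mediated decay, such as the helicase Upf1, which degrade several spliced snoRNA hosts, had a median of -0.10, and the 5 telomerase partners one of 0.07. The small structured RNAs that these proteins bind were not among the 67 genes.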

How the data were processed

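The authors deposited 1 table of FPKM values for 25378 genes in 8 libraries from skin RNA (TRIzol extraction, 1 µg total RNA, VAHTS Universal V6 kit, per the labels' protocols). Per the submitters' processing notes, CASAVA, cutadapt and HISAT2 2.1.0 were used with build mm10. How reads were counted, with which strand setting and annotation, is not given in the sources used here. The members and lists were chosen with earlier results of these data known.

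The 12598 genes that reached 1 FPKM in 4 or more libraries were fitted on log2(FPKM + 1) with limma 3.58.1 (R 4.3.3), using an intensity trend, robust moderation and no covariate. Tests were 2-sided, and Benjamini-Hochberg adjustment ran over all of them. This scale understates fold changes of low genes. Within a gene, values stood in whole-number steps. Whole reads were recovered for 100% of genes within a tolerance of 0.01 of a read, and they give depth and implied length. A gene whose reads share a divisor would be recovered too low. Each SD is over the 4 observed values of a group, so it holds counting error as well as differences between mice. The limma step was tested on simulated data.

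Members were named if they had an unadjusted p under 0.05, were among the 12 highest means, lay next to the threshold, were among the 6 most variable of 20 FPKM or more, or were on a list of well-known RNAs; partner genes were named at an unadjusted p under 0.05. Tincr, Hotairm1, Brip1os, Snhg4, Rab26os, 5730408K05Rik, Gm35986, Gt(ROSA)26Sor, Peg13's and other members' overlapping genes, the ribosomal protein genes, the length classes, the snoRNA genes in the span and the pyrimidine runs were chosen after seeing the data. Positions and sequences are from RefSeq on GRCm38.p6, with the spans of the members matched by NCBI gene ID. Start entries existed for 51 of the 67 genes.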

Additional observations from a re-analysis of the deposited data

Results flagged for a closer look

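In 10 of the 134 groups of 4 mice (67 genes in 2 groups), the highest or lowest value stood apart from the other 3 by Dixon's criterion at its 95% critical value. Chance flags about 1 in 20 groups. H19 had 76.9 FPKM in control replicate 3, against 109.9 to 116 FPKM in the other controls. Snhg12 had 27.7 FPKM in propionic acid replicate 3, against 42.9 to 45.2 FPKM in the others of its group, and Snhg18 had 8.83 FPKM in propionic acid replicate 2, against 12.2 to 12.4 FPKM. BC064078 had 56.9 FPKM in control replicate 2, against 25.2 to 29.3 FPKM, 2010320M18Rik 18.4 FPKM, against 12.9 to 13.8 FPKM, and Lockd 7.96 FPKM, against 4.29 to 4.68 FPKM, all in the same library. 3300005D01Rik had 5.43 FPKM in propionic acid replicate 3, against 6.94 to 7.19 FPKM in the others of its group, and 7.97 FPKM in control replicate 2, against 3.56 to 4.21 FPKM in the other controls. Tug1 had 18.7 FPKM in control replicate 4, against 13.9 to 14.3 FPKM. Dleu2 had 5.69 FPKM in the same library, against 3.28 to 3.43 FPKM, and this value is the only one that overlapped the propionic acid mice.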

How the results depend on the processing

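With control replicates 1 and 3 left out, the median log2 fold change of the 67 genes was -0.0631 in place of 0.26, 26 in place of 53 genes had a positive one, 1 in place of 8 had an unadjusted limma p under 0.05 with a higher level and 3 in place of 0 with a lower one, and 505 in place of 792 of all tested genes had such a p. Gt(ROSA)26Sor then had a log2 fold change of -0.48. Over all tested genes the count of 792 was 1351 without a filter on low values, 496 with a filter at a mean of 5 FPKM and 1916 with a weight per library, and 442 to 1238 when each library was left out in turn. Weights gave 1 gene past an adjusted p of 0.05 and 18 members with a higher level at an unadjusted p under 0.05. Leaving out each library gave 0 to 2 genes past the adjusted threshold (1 without control replicate 2 and 2 without control replicate 3), 4 to 18 members higher and 0 to 2 lower (H19 and Mira without propionic acid replicate 1, and Gm35986 without control replicate 3). The lowest count of members higher, 4, came without propionic acid replicate 4, and the highest, 18, without control replicate 2. In these 8 leave-one-out settings 46 to 57 members had a positive log2 fold change. The causes were not tested.

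The replicate numbers are shared by both groups, and the labels do not say whether they pair mice. The correlation of deviations between same-numbered libraries was -0.319, -0.081, 0.20 and -0.117, which cannot settle it. With the replicate number as a block, 700 tested genes and 10 members had an unadjusted p under 0.05, 0 genes passed the adjusted threshold, and Snhg12 and 5730408K05Rik were added to the 8 members. The unadjusted limma p fell for Snhg20 (0.00243), Snhg5 (0.00200), Gm46220 (0.00465), Gm36220 (0.00110), Gas5 (0.0292) and 2310001H17Rik (0.0342). It rose for Dleu2 (0.00938) and Peg13 (0.0455). Gas5 was lost from the 8 without a filter and 2310001H17Rik with quantile normalization and with voom on recovered reads, and both with median-of-ratios scaling. Of 670 values of members in the 10 settings that kept all libraries, 11 turned sign (9 with weights and 2 with median-of-ratios scaling), none of them with an unadjusted p under 0.05. Depth limits the shortest genes, where 14 of the 67 had under 100 reads in some library.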
